A study of Mus musculus with 4 samples.

Results

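The heat shock chaperones described here are 10 mouse genes of the 17561 genes in the deposited table, chosen by name and found through their Ensembl identifiers: the HSP70 genes Hspa1a, Hspa1b and Hspa8, the HSP90 genes Hsp90aa1 and Hsp90ab1, the J-domain genes Dnaja1 and Dnajb1, the HSP110 gene Hsph1, and the mitochondrial chaperonin pair Hspd1 and Hspe1. All 10 were in the table. Their levels were read in single CD8+ T cells that had been sorted from mouse BM 4 weeks after SCT. Of these genes, 8 reached 10 CPM (counts of a gene scaled to a total of 1000000) over all cells, as did 7604 genes in all, while Hspa1a and Hspa1b did not and entered no count of changed genes.

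Recipients were on a C57BL/6 background, WT or CRBN transgenic (a modified cereblon lets lenalidomide act in mouse cells), bore the Vk12653 myeloma, and were given 10000000 BM cells and, per the labels, 5000000 T cells from genetically matched donors, where the description of this experiment in the study gives a lower T cell number. The 4 groups received isotype control with vehicle, TIGIT inhibition with vehicle, isotype control with lenalidomide, or TIGIT inhibition with lenalidomide, antibody from the day of transplant and lenalidomide from day 14 until harvest at day 28. CD8+ T cells of 5 mice were pooled per group, so each group was 1 library with no replicate, and which mice carried the CRBN transgene in a pool is not stated in the labels. The deposited cells carry a library number from 1 to 4, and no label read here ties a number to a treatment. Library, treatment, mouse pool and capture therefore cannot be told apart, values are given for every library, and no test between libraries or clusters was made.

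The libraries held 1725 to 4237 cells and 15556967 to 38440687 unique molecular identifiers (UMIs, 1 per captured RNA molecule), with 7115 to 7669 UMIs in the median cell. Cells were grouped by the authors' deposited cluster names: naive (Tn), central memory (Tcm), transitory, GzmB+ and TIGIT+ effector (Teff), GzmA+ and TIM-3+ exhausted (Tex) and cycling. These 8 clusters were made from the expression of the same cells, so that differences between them are descriptions. Of the 8 comparisons made, several share Tn, transitory Teff or the Teff and Tex cells, and so are not independent of each other. Cd3e was read in 98.4% to 99.9% and Cd8a in 79.8% to 98.2% of the cells of a cluster, and Cd4 was at 0 in 20 of 32 sums by cluster and library. In GzmA+ Tex the 7 macrophage markers summed to 1529 CPM, against 7.25 to 86.7 CPM in the other clusters, and in TIGIT+ Teff the nuclear RNA Malat1 stood at 6564 CPM, against 2271 to 2984 CPM. The median cycling cell held 13960 UMIs and the median transitory Teff cell 5545. A 16-base cell barcode was shared with another library by 112 of 11754 cells.

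HSP70 proteins bind stretches of unfolded protein and release them in a cycle driven by ATP. J-domain proteins deliver the client and start ATP hydrolysis, HSP110 proteins such as the product of Hsph1 exchange the nucleotide, and HSP90 takes over clients that are nearly folded, kinases and hormone receptors among them. In mitochondria, HSP60 (Hspd1) forms a barrel that HSP10 (Hspe1) closes as a lid. Hspa8 and Hsp90ab1 are known as the constitutive forms, while Hspa1a, Hspa1b, Dnajb1 and Hsph1 are classic targets of the heat shock factor HSF1, which binds heat shock elements, alternating units GAA and TTC spaced by any pair of bases. Activated T cells are known to raise chaperone synthesis as they grow.

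Heat shock elements near the start sites are shown because the chaperonin pair, whose levels went apart between clusters, shares 1 of them. RefSeq start windows of GRCm38.p6 (250 bases before and 50 after a start site) were at hand for 7 of the 10 genes, in 12 windows, and Hspa8, Hsp90aa1 and Hsp90ab1 had none. An element of 3 units (GAANNTTCNNGAA or TTCNNGAANNTTC, each the other's reverse complement) was found in windows of Hspd1, Hspe1 and Hsph1, and in 0.603% of all 32851 windows. A 2-unit element (GAANNTTC or TTCNNGAA, contained in every 3-unit element) was found in 6 of the 7 genes, all but Dnajb1, and in 15.1% of all windows. Each sequence is the gene's own strand, 5′ to 3′, with the heat shock element in capitals.
Hspd1: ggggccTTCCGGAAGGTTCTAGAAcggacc
Hspe1: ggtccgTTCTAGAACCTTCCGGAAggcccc
Hsph1: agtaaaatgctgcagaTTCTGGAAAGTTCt
Hspa1a: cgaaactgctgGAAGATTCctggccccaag
Hspa1b: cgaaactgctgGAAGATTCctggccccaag
Dnaja1: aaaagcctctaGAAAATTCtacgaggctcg
The Hspd1 and Hspe1 lines are the 2 strands of the same stretch, chr1:55088053-55088082, whose 18 capitals hold 2 overlapping 3-unit elements. On the minus strand the capitals began 144 bases before a Hspd1 start site at 55087932, while the other Hspd1 start site, 55088243, lies on the far side of the stretch, which is then inside the transcript. For Hspe1, with its start site at 55088148 on the plus strand, they began 89 bases before it. The Hsph1 stretch, chr5:149636287-149636316 on the minus strand, lies after both Hsph1 start sites, its capitals beginning at base 37 counted from the start site at 149636336 and at base 16 from that at 149636315. A separate 2-unit element of Hsph1, at 149636362 to 149636369, is not printed. It lies before both start sites, beginning at base -33 from the first and at base -54 from the second. The stretches of Hspa1a (chr17:34972242-34972271) and Hspa1b (chr17:34959324-34959353), both on the minus strand, are letter for letter the same, and that of Dnaja1 is chr4:40722333-40722362 on the plus strand. A CCAAT box (CCAAT or ATTGG) lay in windows of 6 of the 7 genes, all but Hspe1, and in 37.4% of all windows, and an E-box (CACGTG, its own reverse complement) in those of Hspd1 and Hsph1 and 7.15% of all. These matches describe letters in a window, not bound sites.

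Over all cells, Hsp90ab1 (chromosome 17, 45567775 to 45573271, minus strand) stood at 1909 CPM (95% Poisson interval 1901 to 1917) and Hspa8 (chromosome 9, 40800984 to 40810087, plus strand) at 1673 CPM (1665 to 1681), places 94 and 100 among all genes by UMIs. Both were read in over 99% of cells, 99.4% and 99.7%. Hspe1 (chromosome 1, 55088132 to 55091307, plus strand) stood at 370 CPM, Hsp90aa1 (chromosome 12, 110690605 to 110702728, minus strand) at 351 CPM and Dnaja1 (chromosome 4, 40722150 to 40737149, plus strand) at 202 CPM. Hspd1 (chromosome 1, 55077835 to 55088243, minus strand) reached 154 CPM, Dnajb1 (chromosome 8, 83608193 to 83612653, plus strand) 73.0 CPM and Hsph1 (chromosome 5, 149614287 to 149636376, minus strand) 48.0 CPM. The stress-inducible HSP70 genes gave few UMIs, Hspa1b (chromosome 17, 34956436 to 34959238) at 1.22 CPM and Hspa1a (chromosome 17, 34969190 to 34972156) at 0.490 CPM. Reads that match both genes alike may have been left uncounted, which was not tested, so that these levels are not read as absence. All 10 are protein coding, and coordinates are those of GENCODE M21 on GRCm38. Counting from the 5′ end gives 1 UMI per captured molecule whatever its length, but capture can differ between genes, so levels are compared between cells and not between genes.

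Of the 8 chaperones, Hsp90ab1, Hspa8, Dnaja1, Dnajb1 and Hspd1 varied less from cluster to cluster than most genes did. Hsph1, Hspe1 and Hsp90aa1 varied about as much as the median gene. For Hsp90ab1 the highest cluster, by the median of its 4 libraries, was 1.27-fold above the lowest, for Hspa8 1.32-fold, for Dnaja1 1.33-fold and for Dnajb1 1.36-fold. Over the 7604 genes the median of this spread was 1.93-fold, and 3.22% of them varied less than Hsp90ab1, 6.22% less than Hspa8, 6.75% less than Dnaja1 and 8.82% less than Dnajb1. Hspd1 varied 1.55-fold, with 24.5% of genes below it, Hsph1 1.84-fold (44.8%), Hspe1 1.90-fold (48.2%) and Hsp90aa1 2.02-fold (54.8%). A gene with fewer UMIs has a larger counting error in its medians, which widens this spread, and Hsp90ab1 and Hspa8 were among the genes with the most UMIs.

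**Figure D1:**
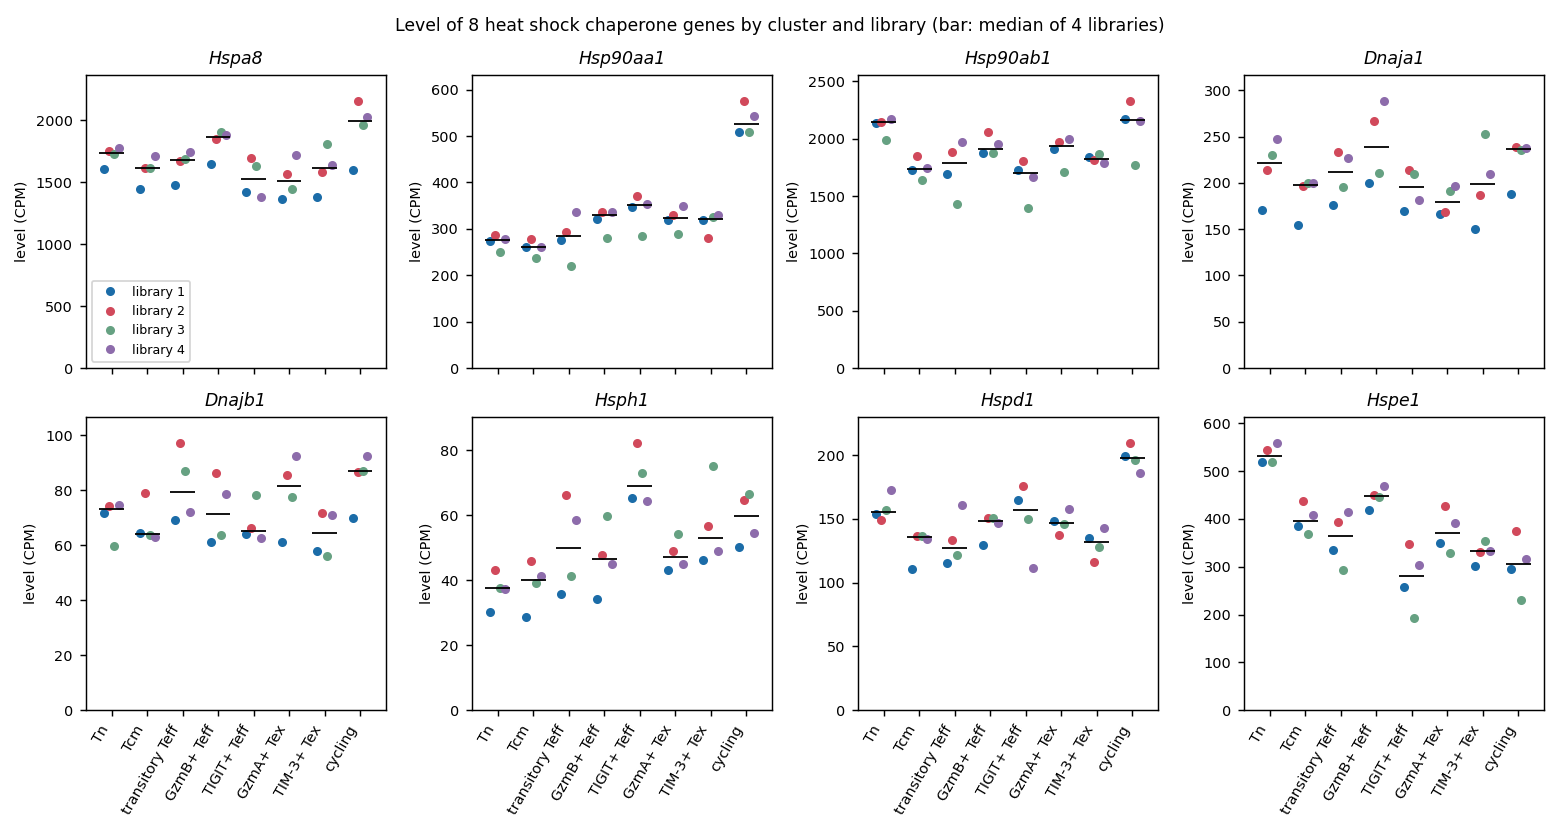
Level in CPM of 8 heat shock chaperone genes in 8 clusters, a point per library in its color and a bar at the median of 4 libraries, with each vertical axis starting at 0. Hsp90aa1 and Hspd1 stand highest in cycling cells in all 4 libraries, Hspe1 is highest in Tn in all 4, and the other genes overlap between most clusters.

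Hsp90aa1, the HSP90 form known to respond to growth signals and stress, was highest in cycling cells in each of the 4 libraries. Its level there was 509 CPM in library 1, 575 in library 2, 509 in library 3 and 543 in library 4, and the ranges of cycling cells and of TIGIT+ Teff, the next cluster at 286 to 372 CPM, did not overlap. Below it, GzmB+ Teff (279 to 336 CPM), GzmA+ Tex (288 to 349 CPM), TIM-3+ Tex (281 to 329 CPM), transitory Teff (220 to 337 CPM), Tn (249 to 287 CPM) and Tcm (238 to 279 CPM) overlapped their neighbors in the order of medians. After each cell was thinned to 2500 UMIs, 69.6% of cycling cells held a Hsp90aa1 UMI, against 44.8% to 54.4% in the other clusters. Cycling cells are told by Mki67, Top2a, Pclaf and Birc5, known markers of proliferation, which summed to 2422 CPM there and to 37.2 to 308 CPM elsewhere.

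Against the 5 Teff and Tex clusters together, the cycling level of Hsp90aa1 was higher by 0.74 on the log2 scale (95% counting interval 0.71 to 0.77, 527 against 315 CPM) and by 0.69, 0.90, 0.91 and 0.69 in libraries 1 to 4. It was thus at least 1.5-fold higher in every library, the rule for a call used throughout, which 7.42% of all genes met in this direction and 2.72% in the other. Of the 8 chaperones, 1 was called higher and 0 lower. Hspd1 came next, at 196 against 142 CPM, higher by 0.47 (0.41 to 0.52) and by 0.30 to 0.62 in the libraries. Hsp90ab1 (0.22), Hspa8 (0.21), Dnajb1 (0.16), Dnaja1 (0.11) and Hsph1 (0.10) were each above 0 in 4 of 4 libraries, all of them under 1.5-fold. With ribosomal protein, mitochondrial and TCR variable genes left out of the denominator, every gene of this comparison moved by -0.11, which puts Hsph1 just below 0, and calls were 61.3% higher ones in place of 73.2%. Hspe1 alone went the other way, at 300 against 354 CPM, a log2 ratio of -0.24 (-0.28 to -0.20) that was below 0 in 4 of 4 libraries.

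Cell depth moved with this result. Among cells of 8000 to 14000 UMIs on both sides the Hsp90aa1 difference was 0.58, from 0.42 to 0.91 in the libraries, and with the smaller denominator it was 0.63, from 0.58 to 0.79, so that under either choice Hsp90aa1 stayed above 0 in every library but missed the 1.5-fold rule in at least 1. Outside the cycling cluster, Teff and Tex cells with a UMI of a cycling marker stood above those without in Hsp90aa1 by 0.11 on the log2 scale (0.0038 to 0.22; 4 of 4 libraries), after thinning to 2500 UMIs. The same split gave 0.32 for Hsph1 (0.08 to 0.56; 4 of 4 libraries) and 0.29 for Hspd1 (0.13 to 0.45; 3 of 4), and -0.20 for Hspe1 (-0.31 to -0.09; below 0 in 3 of 4). These values pool the Teff and Tex clusters, of which TIGIT+ Teff had the most cycling marker CPM (308, against 74.5 to 226). Among them it was also highest in Hsp90aa1, Hsph1 and Hspd1 and lowest in Hspe1 by the median. Marker and cluster therefore cannot be told apart in this split. In Tn the same split gave -0.42 for Hsp90aa1 (-0.84 to -0.03; above 0 in 1 of 4 libraries, 112 cells with a marker UMI), the opposite sign, and in Tcm 0.13 (-0.08 to 0.33; 4 of 4 libraries). The split was chosen after values had been seen.

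**Figure D2:**
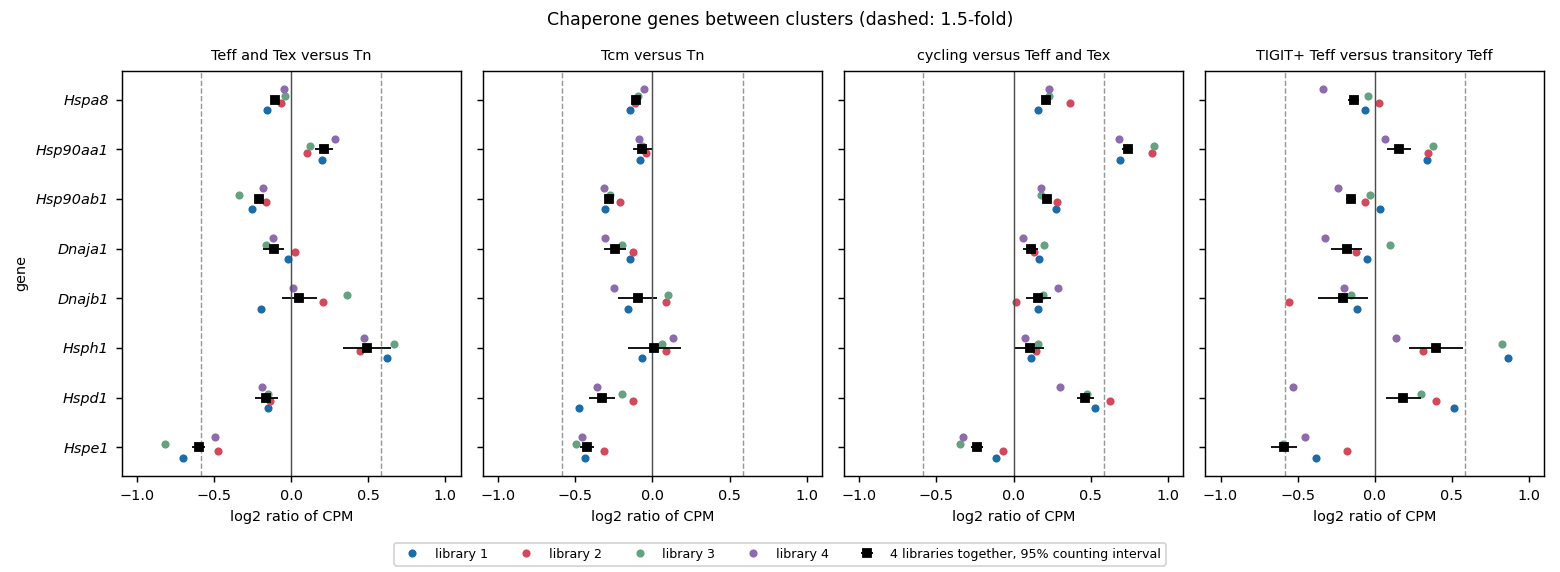
Log2 ratio of CPM of 8 chaperone genes in 4 comparisons of clusters, with colored points for the libraries, a black square and its 95% counting interval for the 4 libraries together, and dashed lines at 1.5-fold. Hsp90aa1 lies beyond 1.5-fold in cycling cells in all 4 libraries, and Hspe1 lies below 0 in every library of all 4 panels.

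Hspe1, the lid of the mitochondrial chaperonin, was highest in Tn, at 520 CPM in library 1, 545 in library 2, 519 in library 3 and 558 in library 4. In every library Tn stood above GzmB+ Teff, the next cluster, at 420 to 469 CPM, and the ranges did not overlap. Tcm followed with 368 to 438 CPM, and GzmA+ Tex (328 to 426 CPM), transitory Teff (293 to 416 CPM), TIM-3+ Tex (301 to 353 CPM), cycling cells (231 to 375 CPM) and TIGIT+ Teff (194 to 347 CPM) each overlapped its neighbors. In thinned cells, 73.2% of Tn cells held a Hspe1 UMI and 36.4% of TIGIT+ Teff cells.

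Between Teff and Tex together and Tn, Hspe1 was not called, with a log2 ratio of -0.60 (-0.64 to -0.56). It was at -0.70, -0.47, -0.82 and -0.50 in libraries 1 to 4, beyond 1.5-fold in libraries 1 and 3. TIGIT+ Teff, the lowest cluster, gave 436, 50, 271 and 59 of the Teff and Tex cells in these libraries. The part of this mix was not tested. In Tcm against Tn the Hspe1 ratio was -0.43 (-0.47 to -0.38), with -0.31 to -0.50 in the libraries. Among all genes, 11% were at least 1.5-fold higher and 1.39% lower in Teff and Tex than in Tn in every library, and 4.22% and 0.947% in Tcm than in Tn. Of the 8 chaperones, 0 were called in either comparison. By the median library, the median gene was at 0.29 in the first comparison and at 0.13 in the second, and the median of the 8 chaperones at -0.06 and -0.14.

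Ribosomal protein transcripts moved with Hspe1. Over the 32 sums by cluster and library, the genes whose log2(CPM + 10) was most like that of Hspe1 were Rps12 (Pearson's r 0.95), Rps25 (0.95) and Rpl22 (0.94), among 2788 genes of at least 50 CPM, where the sums of a library share its depth and the sums of a cluster its cell type. The 77 ribosomal protein genes with a symbol of Rpl or Rps and a number together took 37.0% of UMIs in Tn, 31.6% in Tcm, 29.4% in GzmB+ Teff, 26.2% in transitory Teff, 25.7% in GzmA+ Tex, 23.5% in TIM-3+ Tex, 19.7% in cycling cells and 18.5% in TIGIT+ Teff. The smaller denominator left out mitochondrial genes, TCR variable genes and, by a wider rule, every gene whose symbol begins with Rps or Rpl. With it, every gene of Teff and Tex against Tn moved by -0.30 and every gene of Tcm against Tn by -0.14. Hspe1 was then at -0.90, with -1.20 to -0.73 in the libraries, and passed 1.5-fold in each, but this came from the scaling that moved all genes alike, under which 6.56% of genes were called higher and 4.29% lower. Calls in Teff and Tex were thus 60.5% higher ones in place of 88.8%, and in Tcm 69.0% in place of 81.7%. The part of the ribosomal share in the Hspe1 values was not tested.

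Hspd1, the barrel that Hspe1 closes, did not follow its partner. It was highest in cycling cells in all 4 libraries, at 186 to 209 CPM, above TIGIT+ Teff at 112 to 176 CPM with no overlap, and Tn stood at 149 to 172 CPM, level with TIGIT+ Teff, GzmB+ Teff (129 to 151 CPM) and GzmA+ Tex (137 to 158 CPM). TIM-3+ Tex (116 to 143 CPM), Tcm (110 to 137 CPM) and transitory Teff (116 to 161 CPM) lay at the bottom and overlapped. In Teff and Tex against Tn, Hspd1 was at -0.16 (-0.24 to -0.08; below 0 in 4 of 4 libraries). Across the 32 sums, Pearson's r of Hspd1 and Hspe1 was -0.05, while Hspd1 and Hsp90aa1 had 0.71.

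The partners are therefore described by the number of Hspe1 UMIs per Hspd1 UMI, a quantity chosen after values had been seen, in which the denominator of CPM cancels. It was 3.38 in Tn (3.24 to 3.65 in the libraries), 3.15 in Tcm (2.69 to 3.49) and 3.12 in GzmB+ Teff (2.97 to 3.24). Transitory Teff had 2.73 (2.41 to 2.95), GzmA+ Tex 2.53 (2.25 to 3.10) and TIM-3+ Tex 2.38 (2.23 to 2.85). TIGIT+ Teff, at 1.60, and cycling cells, at 1.53, had the fewest, with 1.29 to 2.72 and 1.18 to 1.79 in the libraries. Cycling cells lay below Tn in 4 of 4 libraries, the ratio of Hspd1 to Hspe1 being 2.21-fold higher (log2 1.14, 1.05 to 1.24), and the ranges did not overlap. TIGIT+ Teff was 2.12-fold higher than Tn in the same ratio (log2 1.08, 0.94 to 1.22), but library 4, with 59 such cells, had a difference of only 0.25, while libraries 1 to 3 had 1.11, 0.89 and 1.35. In cells of 8000 to 14000 UMIs the TIGIT+ Teff difference was 0.80.

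Hspd1 and Hspe1 lie side by side on opposite strands. The Hspe1 start site points away from the Hspd1 start site at 55087932 and toward that at 55088243, and in the annotation Hspd1 reaches to 55088243 and Hspe1 begins at 55088132, so that their 5′ ends overlap. Reads in this overlap can be assigned only with strand, and the strand setting of the authors' counting is not given in the sources used here. Named processed pseudogenes in the annotation number 5 for Hspd1, 6 for Hspe1 and 1 for Dnaja1, and 0 of them were in the table, so that shared reads could have been lost or assigned to the parent gene.

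**Figure D3:**
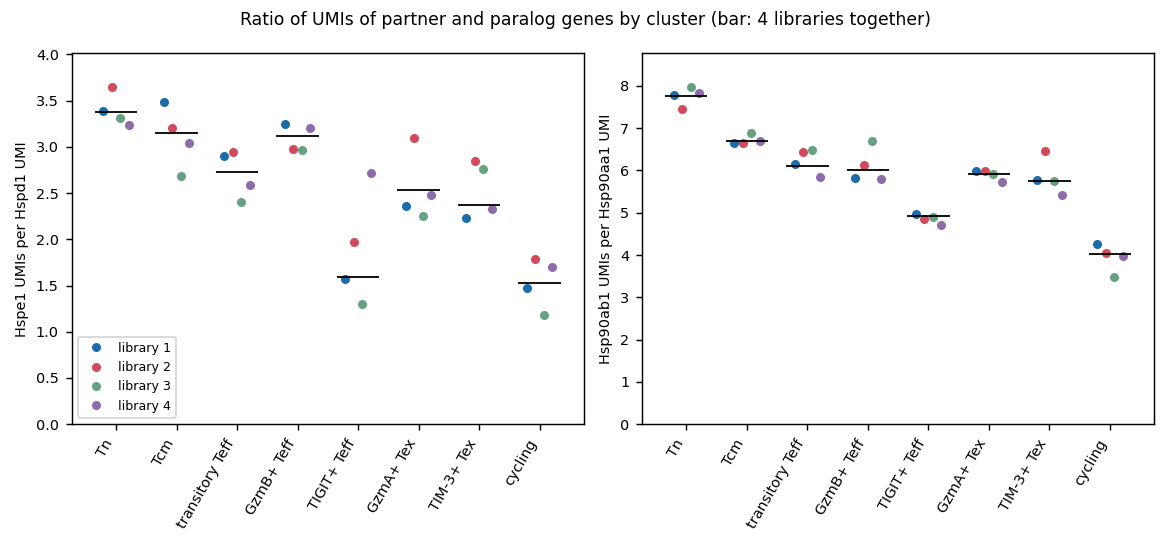
Hspe1 UMIs per Hspd1 UMI (left) and Hsp90ab1 UMIs per Hsp90aa1 UMI (right) in 8 clusters, with a point per library and a bar for the 4 libraries together, both axes starting at 0. Both ratios are lowest in cycling cells, at 1.53 and 4.02, and highest in Tn, at 3.38 and 7.77.

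The HSP90 paralogs also parted. Hsp90ab1 stood at 1985 to 2173 CPM in Tn and at 1774 to 2328 CPM in cycling cells, the ranges overlapping, with 1399 to 1804 CPM in TIGIT+ Teff, the lowest by the median. In Teff and Tex against Tn it was at -0.21 (-0.23 to -0.19; 4 of 4 libraries below 0), while Hsp90aa1 was at 0.21 (0.15 to 0.27; 4 of 4 above 0), which the smaller denominator, moving all genes by -0.30, turns below 0. The ratio of the paralogs does not depend on the denominator. Per Hsp90aa1 UMI, Tn held 7.77 Hsp90ab1 UMIs (7.46 to 7.97 in the libraries) and Tcm 6.70 (6.64 to 6.90). The ratio was 6.11 in transitory Teff, 6.00 in GzmB+ Teff, 5.91 in GzmA+ Tex and 5.76 in TIM-3+ Tex, with library ranges that overlapped. It was lower in TIGIT+ Teff, at 4.92 (4.72 to 4.98), and lowest in cycling cells, at 4.02 (3.49 to 4.26), where the ranges overlapped neither each other nor those of the other clusters. This order was held within every library at its ends, Tn first and cycling cells last. The chaperonin ratio also had cycling cells last in every library, but in library 1 Tcm (3.49) stood above Tn (3.38).

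The genes most like Hsp90aa1 over the 32 sums were Alyref (r 0.92), Mcm5 (0.92) and Hnrnpab (0.92), of which Mcm5 encodes a subunit of the replicative helicase. For Hsp90ab1 they were Mif (0.89), Nhp2 (0.84) and Pa2g4 (0.82). Ncl (0.84), Nasp (0.84) and Stip1 (0.81) were most like Hspd1, Nasp being a histone chaperone and Stip1 the adaptor that joins HSP70 to HSP90. Like genes were chosen for their likeness over these sums, so that the values are descriptions.

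Hspa8 and Dnaja1, an HSP70 and a J-domain protein known to work with it, were more like each other than like any other gene (r 0.82). Both were higher in GzmB+ Teff than in transitory Teff in 4 of 4 libraries, Hspa8 by 0.15 (0.11 to 0.18) and Dnaja1 by 0.25 (0.16 to 0.34), and Hspe1 was higher by 0.26 (0.19 to 0.33) in 4 of 4. Hspa8 had 1644 to 1907 CPM in GzmB+ Teff and 1478 to 1741 CPM in transitory Teff, ranges that overlapped because library 1 was low in both. Dnaja1 had 200 to 288 CPM and 176 to 233 CPM. None of the 8 chaperones was called in this comparison, in which 2.37% of all genes were higher and 0.815% lower.

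Hsph1, the HSP110 exchange factor, was lowest in Tn and Tcm and highest in TIGIT+ Teff. It stood at 30.1 to 43.2 CPM in Tn and 28.7 to 45.9 CPM in Tcm. In TIGIT+ Teff it stood at 64.5 to 82.1 CPM, above both with no overlap, and was the highest cluster in 3 of 4 libraries. Cycling cells had 50.1 to 66.6 CPM and TIM-3+ Tex 46.3 to 75.0 CPM. In Teff and Tex against Tn, Hsph1 was higher by 0.49 (0.34 to 0.65). It was higher by 0.62, 0.44, 0.67 and 0.47 in libraries 1 to 4, beyond 1.5-fold in libraries 1 and 3 only. TIGIT+ Teff gave 436, 50, 271 and 59 of the Teff and Tex cells in these libraries, and the part of this mix was not tested. By the median library Hsph1 was at 0.55 in this comparison, and the median gene, read the same way, at 0.29. In TIGIT+ Teff against transitory Teff, Hsph1 was higher by 0.40 (0.22 to 0.57; 0.14 to 0.87 in the libraries), and by 0.21 in cells of 8000 to 14000 UMIs. The median gene there was at 0.28, and Hsph1, by the median library, at 0.57. The genes most like it were Tra2b (r 0.81), Top1 (0.80) and Baz1a (0.78), and its correlation with Hspe1 was -0.52. Malat1 was also highest in TIGIT+ Teff, and its part in the Hsph1 values was not tested.

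Dnajb1, the J-domain protein best known as heat induced, showed no cluster that stood apart. It stood at 63.1 to 79.1 CPM in Tcm, the lowest by the median, and at 70.0 to 92.3 CPM in cycling cells, the highest, and the ranges of neighbors overlapped throughout the order. In Teff and Tex against Tn its log2 ratio was 0.05 (-0.06 to 0.17), with -0.20 to 0.36 in the libraries. Its nearest genes, Crip1 (r 0.67), Sms (0.65) and Mrpl33 (0.61), had the lowest leading r of the 8 chaperones.

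Among the other comparisons within the effector clusters, none of the 8 chaperones passed 1.5-fold in every library. In TIGIT+ Teff against transitory Teff, 14.7% of all genes were called higher and 0.224% lower. Hspe1 there was at -0.59 (-0.67 to -0.51) over the libraries together and at -0.42 by the median library. In the libraries it ran from -0.18 to -0.59, below 0 in 4 of 4. Libraries 1 to 4 entered the pooled value unequally, with 436, 50, 271 and 59 TIGIT+ Teff cells and 568, 473, 198 and 652 transitory Teff cells. Hspd1 there was at 0.18 (0.07 to 0.30), but at -0.53 in library 4, so no direction is given. In TIM-3+ Tex against transitory Teff, with 0.921% of all genes called higher and 1.03% lower, Dnajb1 was below 0 in 4 of 4 libraries at -0.28 (-0.43 to -0.14), and in library 3, with 31 TIM-3+ Tex cells, 5 of the 8 genes had the opposite sign to the value over all libraries. In GzmA+ Tex against transitory Teff (1.33% higher, 0.184% lower), Hsp90aa1 was at 0.13 and Hsp90ab1 at 0.08, above 0 in 4 of 4, and Dnaja1 at -0.24 and Hspa8 at -0.12, below 0 in 4 of 4. Macrophage transcripts stood apart in GzmA+ Tex, and their part in these small values was not tested.

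Within transitory Teff, cells of clones found in 2 or more cells (1076 cells) were compared with cells whose clone was found once (368 cells), clones being defined by the TCR. The share of all genes called was 0.434% higher and 0.723% lower, and 0 of the 8 chaperones were called. Hsp90ab1 was below 0 in 4 of 4 libraries, at -0.24 (-0.29 to -0.19), with 1654 CPM in the larger clones and 1956 CPM in the single ones. Hspe1 was at -0.36 (-0.47 to -0.25) and below 0 in 3 of 4 libraries, Hspd1 at -0.32 with 2 libraries on either side of 0. The median cell had 4905 UMIs in the larger clones and 5908 in the single ones.

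Other genes of protein folding were read from lists. Of 15 endoplasmic reticulum chaperones, 3 were higher in Teff and Tex than in Tn in every library and 0 lower, where 11% of all genes were higher. They were Hsp90b1 (394 against 212 CPM), the HSP90 of that compartment, Hspa5 (374 against 209 CPM), its HSP70, and Sdf2l1 (62.7 against 37.5 CPM), and the median of the list was 0.57, against 0.29 over all genes. In cycling cells, 3 of the 15 were higher than in Teff and Tex (7.42% of all genes), Hsp90b1 (657 CPM), Sdf2l1 (127 CPM) and Creld2 (58.8 against 29.1 CPM), with a list median of 0.43 against 0.01. In TIGIT+ Teff against transitory Teff 4 of the 15 were higher, where 14.7% of all genes were, Hspa5 (627 against 288 CPM), Hsp90b1 (596 against 309 CPM), Canx (248 against 102 CPM) and Hyou1 (57.8 against 22.5 CPM), with a list median of 0.45 against 0.28. The cytosolic members next to them, Hspa8 and Hsp90ab1, were each at -0.05 in this last comparison by the median library, the measure of the list medians. Over the libraries together they were at -0.14 and -0.15, with 1 of 4 libraries above 0 for each.

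Of 19 cofactors of HSP70 and HSP90 tested, 2 were higher in cycling cells than in Teff and Tex, a share near the 7.42% of all genes. They were Fkbp5 (42.5 against 21.8 CPM), a prolyl isomerase that binds HSP90, and Hspa14 (56.7 against 33.5 CPM). Hspbp1 (41.2 against 83.8 CPM), a nucleotide exchange factor, was lower in Teff and Tex than in Tn, as were 1.39% of all genes. Of 7 subunits of the cytosolic chaperonin TRiC and 9 mitochondrial chaperones and proteases tested, 0 were called in any of the 8 comparisons. Of all genes, 1.16% to 14.9% were called either way in these comparisons. Of 6 prefoldin subunits Pfdn5 (507 against 793 CPM) was lower in cycling cells, as were 2.72% of all genes. Of 12 stress-induced genes in the table, 5 reached 10 CPM. Hspa4l was higher in Teff and Tex than in Tn (24.1 against 6.42 CPM), and Dnajb4 in Tcm than in Tn (21.2 against 10.7 CPM). Hmox1 was higher in Teff and Tex than in Tn (21.7 against 1.10 CPM) and in GzmA+ Tex (87.9 against 8.23 CPM in transitory Teff). GzmA+ Tex is the cluster with the macrophage transcripts, whose part was not tested. Of all genes, 11%, 4.22% and 1.33% were higher in Teff and Tex against Tn, Tcm against Tn and GzmA+ Tex against transitory Teff. Of 12 immediate early genes, which respond to stimulation and handling, 4 were lower in cycling cells than in Teff and Tex, where 2.72% of all genes were, and 8 were not called. The 4 were Ier3, Junb, Jun and Btg2, with median library differences of -1.07, -0.85, -0.83 and -0.70. The list median was -0.56. In the other comparisons 2 of these genes were higher in Teff and Tex than in Tn (Ier3 and Egr1), where 11% of all genes were. In Tcm against Tn, 1 was higher and 1 lower (Dusp1 and Ier3), where 4.22% and 0.947% of all genes were. Ier3 was lower in GzmA+ Tex, TIGIT+ Teff and GzmB+ Teff than in transitory Teff (0.184%, 0.224% and 0.815% of all genes). Fosb and Jun were higher in TIGIT+ Teff and GzmB+ Teff respectively (14.7% and 2.37% of all genes).

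Libraries differed in the same direction across clusters for some of these genes. Dnaja1 was lowest in library 1 in 8 of 8 clusters, and Hspa8 and Hsph1 in 7 of 8. Among all genes tested 1.03% were lowest in library 1 in 7 or more clusters. Counting error can blur the order of libraries in genes with fewer UMIs, which can lower this share and the like shares below. Hspa8 was among the genes with the most UMIs. In Tn, Dnaja1 stood at 170 CPM in library 1, 214 in library 2, 230 in library 3 and 247 in library 4, and in Tcm at 154, 196, 200 and 200 CPM. Against the median of the other libraries, library 1 was lower for Dnaja1 by -0.37 in the median cluster (-0.48 to -0.20), for Hsph1 by -0.35 (-0.71 to -0.16) and for Hspa8 by -0.20 (-0.34 to -0.13), each below 0 in 8 of 8 clusters. Hspe1 (-0.12) and Hsp90aa1 (-0.04) were also below 0 in 8 of 8, so that 5 of the 8 chaperones were, against 2.71% of all genes, while Dnajb1 (-0.30) was in 7 clusters, Hsp90ab1 (-0.01) in 5 and Hspd1 (-0.00) in 4.

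Of the 12 immediate early genes, 6 were also below the other libraries in library 1 in all 8 clusters. Among them Dusp1 was lower there by -0.98, Fos by -0.94, Jun by -0.73 and Zfp36 by -0.46 in the median cluster. Btg2 was at 0.04 and below 0 in 3 clusters. Their part in the chaperone values was not tested. Hsp90aa1 and Hsp90ab1 were lowest in library 3 in 7 of 8 clusters and Hspe1 in 6, where 2.13% of all genes were lowest in library 3 in 7 or more. In transitory Teff, Hsp90ab1 stood at 1693, 1885, 1429 and 1969 CPM in libraries 1 to 4, and Hspe1 at 336, 393, 293 and 416 CPM. Each library is 1 pool of mice, so these are differences between 4 libraries and have no replicate.

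**Figure D4:**
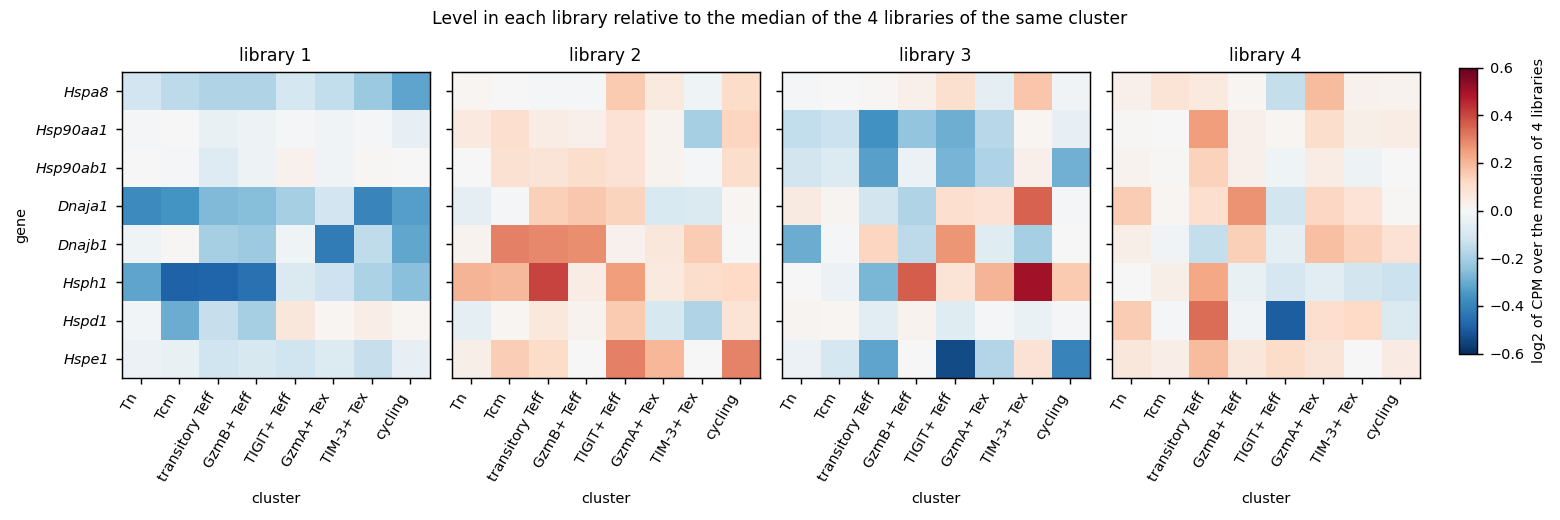
Level of 8 chaperone genes (rows) in 8 clusters (columns) in each library, as log2 of CPM over the median of the 4 libraries in that cluster, red above and blue below on a scale from -0.6 to 0.6. Library 1 is blue for Hspa8 and Dnaja1 in every cluster, and library 3 is blue for Hsp90aa1 and Hsp90ab1 in 7 of 8 clusters.

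Hspa1a and Hspa1b, the HSP70 genes that heat and stress switch on, gave 181 UMIs in 115 of 11754 cells, or 0.978% (95% Clopper-Pearson interval 0.808% to 1.17%). Their 300-base start windows are identical at 296 bases and the first 500 bases of their transcripts at 496, so the split of 52 UMIs for Hspa1a and 129 for Hspa1b is uncertain and the genes were summed. Library 2 held 113 of the 181 UMIs in 60 of 2003 cells, 3.0% (2.29% to 3.84%). Library 1 held 46 UMIs in 40 of 4237 cells (0.944%), library 3 held 6 in 6 of 1725 cells (0.348%), and library 4 held 16 in 9 of 3789 cells (0.238%). These intervals count cells of 1 library each, so that they give no test between libraries. Median depth per cell in library 2, 7115 UMIs, was the lowest of the 4 libraries.

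A few cells held a large part of these UMIs. Of the 115 cells, 86 had 1 UMI, and 8 cells had 5 to 8, together 47 UMIs or 26.0%. Of the 8 cells, 7 came from library 2 and 1 from library 4, with 3 in GzmB+ Teff, 3 in transitory Teff and 2 in Tn, and none in the other 5 clusters. UMIs of both genes were read in 6 of the 8. Their median total was 8447 UMIs and their highest mitochondrial share 2.40%. In library 2 the summed genes were most abundant in GzmB+ Teff, Hspa1a at 10.6 CPM and Hspa1b at 12.6 CPM. No cell type that lacks these genes was at hand to give the share that free RNA adds, so a cell with 1 UMI is not read as a cell that expressed them.

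**Figure D5:**
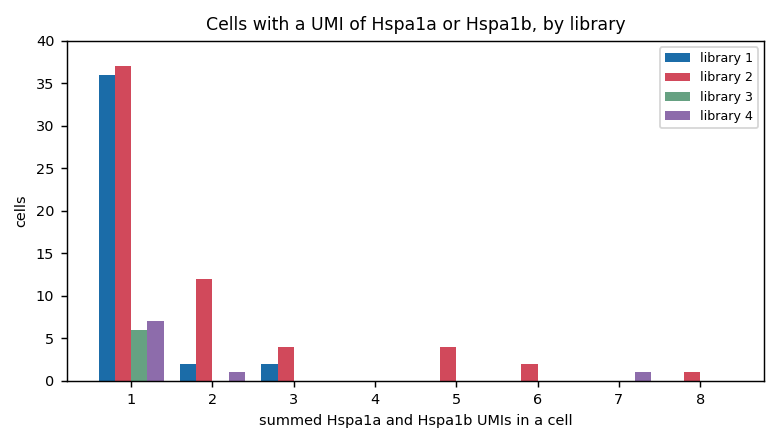
Number of cells (vertical axis, from 0) by their summed Hspa1a and Hspa1b UMIs (horizontal axis), with a bar per library. Most cells hold 1 UMI, and cells with 5 or more are 7 of library 2 and 1 of library 4.

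The other chaperones in these 8 cells were compared with all other cells of the same clusters and libraries. Hspa8 stood at 2154 CPM against 1794 CPM, 1.20-fold (1.02 to 1.41), and was the only one of the 8 chaperones whose counting interval lay above 1. Hsph1 was at 1.78-fold (0.65 to 3.88, from 6 UMIs), Dnaja1 at 1.28-fold (0.81 to 1.95) and Dnajb1 at 1.20-fold (0.48 to 2.48), and Hsp90ab1 at 0.95-fold (0.79 to 1.12). Among stress-induced genes Bag3, Hspb1, Hmox1, Hspa4l and Hspa1l were at 0 UMIs in these cells, with an exact Poisson upper bound of 53.0 CPM. In the other cells they stood at 6.84, 0.02, 5.97, 15.7 and 0 CPM. All of these lie below that bound, so the zeros cannot show a difference. Hsf1 was at 1.05-fold (0.22 to 3.07), Dnajb4 at 1.49-fold (0.04 to 8.32) and Chordc1 at 0.77-fold (0.21 to 1.98). Jun was at 1.87-fold (1.13 to 2.93) and Fos at 0.22-fold (0.03 to 0.79). The cells were picked for their Hspa1a and Hspa1b UMIs after values had been seen, and intervals cover counting error only.

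Single cells gave little further structure. After thinning, 37.1% of cycling cells with a Hspe1 UMI and 35.2% of those without one held a Hspd1 UMI, and in Tn 29.6% and 31.4%. The difference ranged from -1.76 to 7.98 percentage points over the 8 clusters, and was above 0 in every library only in transitory Teff and, for the 3 libraries with 20 cells on each side, in TIM-3+ Tex. For Dnaja1 and Dnajb1 it was above 0 in 4 of 4 libraries in transitory Teff (5.44 points) and in cycling cells (6.21 points). For Hsp90aa1 and Hspd1 the difference was above 0 in all 8 clusters, from 2.17 to 8.56 points, though in every library of 3 of them only. The other pairs were mixed: for Hsp90aa1 and Dnaja1 it ran from -3.16 points in Tcm, where it was below 0 in 4 of 4 libraries, to 10.8 in GzmB+ Teff, for Hsp90aa1 and Hsph1 from -1.62 to 7.79, and for Hsph1 and Dnajb1 from -4.46 in TIM-3+ Tex to 4.21 in cycling cells. In counts this sparse these differences are descriptions of detection, not of co-regulation.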

How the data were processed

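The authors processed reads of 10x Genomics 5′ libraries with Cell Ranger 7.00 (mm10 per the labels) and downsampled reads so that libraries had similar depth. By their description, cells were filtered on total UMIs (above 2500, below 25000), mitochondrial share (below 15%) and expression of Cd3e/g and Cd8a. In the deposited counts, however, Cd8a was read in only 79.8% to 98.2% of the cells of a cluster. The deposited table holds raw UMI counts per gene and cell, and the deposited mitochondrial share is a fraction from 0 to 1. Cluster names and Leiden numbers are the authors'. Removal of doublets is not given in the sources used here, and none were removed.

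UMIs were summed by cluster and library and divided by all UMIs of these cells (CPM). A gene of at least 10 CPM over all cells was called in a comparison when all 4 libraries passed 1.5-fold the same way, without a test. Shares of cells were read after thinning each cell to 2500 UMIs (seed 7). Intervals at the 95% level (exact Poisson, conditional binomial, Clopper-Pearson; for the ratio of Hspd1 to Hspe1 a normal interval of the log) cover counting error only, and UMIs, not mice, are what they count. Symbols and coordinates were taken from GENCODE M21, which named 17534 of 17561 genes, and start windows from RefSeq. Named are all 10 chaperones, at most 4 called genes of a list with the largest median difference in the comparison described, and the 3 genes most like each chaperone (Pearson, log2(CPM + 10), at least 50 CPM). The members and the 7 other lists were chosen with earlier results of these data known. The ribosomal protein share, the library 1 values of named immediate early genes, and the cells with 5 or more Hspa1a and Hspa1b UMIs were added after values were seen. Protein sequences were not analysed here. Alternatives changed the fold, the cell weight, depth, denominator, grouping and the libraries and cells used. Python 3.11.15, numpy 2.4.6, scipy 1.17.1 and pandas 2.3.3 were used, and ratios, intervals and thinning were tested on simulated data.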

Additional observations from a re-analysis of the deposited data

How the results depend on the processing

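No paired analysis was possible because each treatment group is 1 library, so that replicate numbers pair no samples of the treatment groups. Clusters were compared within each library, and no test was made on these pairs, since the clusters were made from the same expression values. Of the counts of chaperones past the fold, 1 in cycling cells against Teff and Tex and 0 in the other 7 comparisons, these changed. The count in cycling cells was 0 at 2-fold, 0 without ribosomal protein, mitochondrial and TCR variable genes in the denominator, and 0 in cells of 8000 to 14000 UMIs, an alternative added after values were seen, while leaving out any library gave 1. In Teff and Tex against Tn, Hspe1 was called (count 1) when the libraries were pooled and with the smaller denominator, which moved every gene of that comparison by -0.30. In TIGIT+ Teff against transitory Teff, the count was 1 (Hspe1) when the libraries were pooled, while the median library of Hspe1 was at -0.42, short of 1.5-fold. For the log2 of Hspd1 over Hspe1 minus that in Tn (added after values were seen), every alternative kept its sign. In cycling cells, at 1.14, it was 1.32 with equal weight per cell, 1.42 thinned to 2500 UMIs, 1.28 without cells with macrophage or plasma cell UMIs and 1.26 in cells of 8000 to 14000 UMIs. In TIGIT+ Teff, at 1.08, it was 1.63, 1.60 and, in the last kind of cells, 0.80, in TIM-3+ Tex, at 0.51, 0.67 thinned and 0.64 without macrophage or plasma cell UMIs, and in transitory Teff, at 0.31, 0.45 thinned. The cause of these shifts was not tested. Of 696 recomputed log2 ratios of single chaperones, 477 lay within the counting interval of the reported value and 52 had another sign, 0 of them a called one. The alternatives were unlike in this. In cells of 8000 to 14000 UMIs, 27 of 64 ratios lay within the interval and 14 had another sign, with a largest shift of 0.48. With the smaller denominator, 28 of 64 lay within it and 6 had another sign. Small ratios between clusters of unlike depth therefore depend on these choices. Leaving out cells with macrophage or plasma cell UMIs left under 10 GzmA+ Tex cells in a library, so that alternative gave no value there. With 31 cells, TIM-3+ Tex of library 3 had the least depth.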
